A study of Mus musculus with 21 samples.

Results

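The genes described here are the 10 kinases and scaffolds of the DLK and JNK axon injury pathway, chosen by name from the 17164 genes counted in sorted mouse retinal ganglion cells. They are the kinases Map3k12 (DLK) and Map3k13 (LZK), the kinases Map2k4 (MKK4) and Map2k7 (MKK7), the JNK genes Mapk8 (JNK1), Mapk9 (JNK2) and Mapk10 (JNK3), and the JIP scaffold genes Mapk8ip1, Mapk8ip2 and Mapk8ip3. All 10 passed the filter on low counts, which kept 16797 genes.

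DLK and LZK are kinases that sit at the top of a relay in injured neurons: they phosphorylate MKK4 and MKK7, which phosphorylate the JNKs on a threonine and a tyrosine of the activation loop. JIP scaffolds hold the kinases together and tie them to motors that run along the axon, and active JNK reaches the nucleus, where it phosphorylates c-Jun. In retinal ganglion cells, which send their axons through the optic nerve to the brain, loss of DLK and LZK is known to lower cell death after optic nerve injury and to lower the injury response that involves ATF4 and CHOP. Most of this control acts on protein and phosphorylation, which RNA levels do not measure.

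Each library came from C57BL/6 mice aged 6 to 7 weeks in the sample sheet, 3 days after the optic nerve was crushed, and all groups had this injury, so no uninjured level was measured here. The groups carried guide RNAs against ATF3 (5 libraries), ATF4 (2 libraries), CEBPG (4 libraries) or CHOP (5 libraries), or a control guide in mice labelled wild type (4 libraries). ATF3, ATF4, C/EBP gamma and CHOP are bZIP transcription factors of the stress response, and CHOP is the product of Ddit3. The sources used here do not say how guides and Cas9 reached the cells, or in which share of them a gene was edited.

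The libraries held 25267560 to 32776378 reads in genes in ATF3 knockouts, 11929692 to 12404601 in ATF4, 9000250 to 29810987 in CEBPG and 14272784 to 31543917 in CHOP knockouts, and 6401446 to 11752828 in controls. In the sample sheet the ATF3, CEBPG and CHOP libraries form batch 3 and are female, the ATF4 libraries form batch 1 and are female and male, and the controls form batch 2 and are male. Knockout and batch therefore cannot be told apart in any comparison with control, nor can sex in those of ATF3, CEBPG and CHOP knockouts, whereas the ATF3, CEBPG and CHOP knockouts share batch and sex. ATF4 replicate 1, labelled female, carried RNA of the Y chromosome, and each ATF4 result is also given without it where that changes a call. A value that leaves out an ATF4 library rests on 1 ATF4 library, assumed to vary like the other groups. Atf3 stood at 30.6 to 48.0 CPM (read counts scaled to a common library size and for library composition) in ATF3 knockouts against 104 to 125 CPM in controls, and Atf4 at 148 to 160 CPM in ATF4 knockouts against 216 to 387 CPM in controls. Cebpg stood at 49.2 to 92.4 CPM in CEBPG knockouts against 74.6 to 93.6 CPM in controls, and Ddit3 at 57.4 to 72.6 CPM in CHOP knockouts against 75.4 to 109 CPM in controls. A guide need not lower the RNA of its target, and Atf4, for one, was lower still in the ATF3 knockouts (77.7 to 98.3 CPM), so these levels do not check the labels.

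The sorted cells held RNA of other retinal cells, and its level followed the groups. The summed level of 16 ganglion cell markers was 795 to 829.6 CPM in ATF3, 847 to 891 in ATF4, 532 to 692 in CEBPG and 659.7 to 832 in CHOP knockouts, against 624 to 834 CPM in controls. Nefl alone, a neurofilament gene that other neurons also make, gave 396 to 410 CPM of it in ATF3, 219 to 227 in ATF4, 227 to 329 in CEBPG and 296 to 382 in CHOP knockouts, against 219 to 321 CPM in controls. By gene, 5 of the 16 markers were called higher and 6 lower than in controls in ATF3, 8 and 0 in ATF4, 2 and 5 in CEBPG and 4 and 4 in CHOP knockouts, with median log2 fold changes of -0.69, 0.87, -0.29 and -0.45. Of all genes, 16.6% to 18.6% were called higher and 14.6% to 15.4% lower in these comparisons. Some defining genes were low in all groups, with Pou4f1 at 1.31 to 24.2 CPM and Rbpms at 6.51 to 45.5 CPM. Thy1, which is also in the list of lymphocyte markers below, stood at 10.4 to 38.9 CPM in the knockouts against 3.78 to 7.41 CPM in controls. It had 18.7 to 38.9 CPM in ATF4 knockouts and counts in both sums. In all CEBPG knockout libraries Pou4f2 of the ganglion cell list and Slc18a3 of the amacrine list were at 0. The 14 rod markers summed to 3151 to 8967 CPM in the knockouts against 37710 to 59301 CPM in controls. The 12 amacrine markers ran the other way, with medians of 6583 CPM in ATF3, 5767 in ATF4, 4220.5 in CEBPG and 8403 in CHOP knockouts against 2274 CPM in controls. The 11 detected markers of T and NK lymphocytes summed to 274 to 327 CPM in ATF3, 33.3 to 106 in ATF4, 1299 to 2182 in CEBPG and 285 to 441 in CHOP knockouts, against 9.63 to 23.1 CPM in controls. Over all groups the 12 Muller glia markers summed to 6439 to 14185 CPM and the 13 microglia markers to 3451 to 7072 CPM. Both sums exceeded that of the ganglion cell markers in every library. The 12 bipolar markers summed to 478 to 932 CPM in CEBPG and CHOP knockouts, and to 1369 to 1956 CPM in the other groups. The 10 cone markers summed to 1213 to 2558 CPM in ATF3, CEBPG and CHOP knockouts, against 3983 to 5854 CPM in the other groups. In such bulk libraries, fewer cells of a type and less RNA per cell cannot be told apart.

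**Figure D1:**
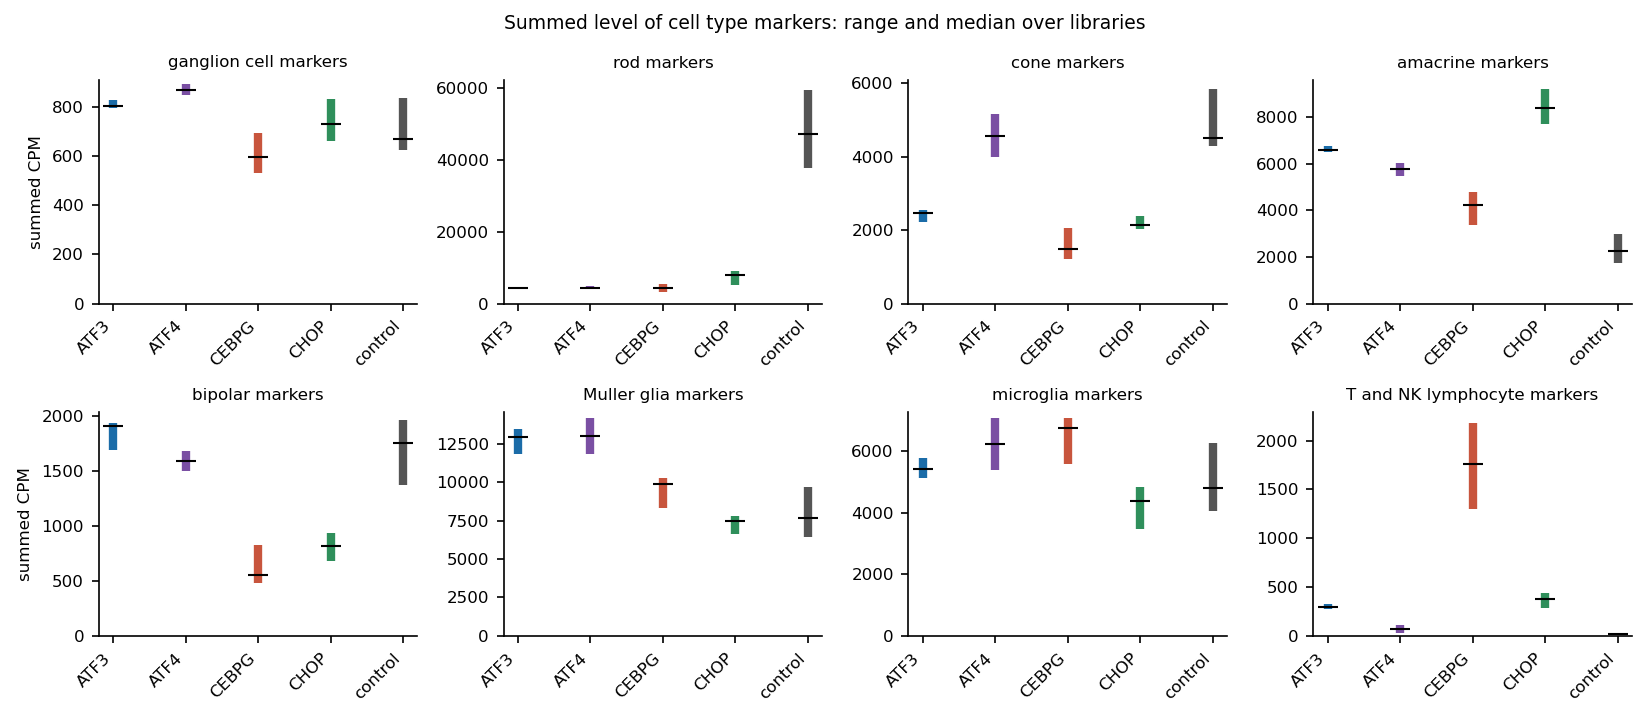
Summed level of the markers of 8 cell types in CPM, with 1 bar for each group that spans its lowest to highest library and a line at the median. Rod markers reached 59301 CPM in controls and at most 8967 CPM in the knockouts, and lymphocyte markers were highest in CEBPG knockouts.

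The JNK genes include Mapk10, the member called in every knockout, and they are close copies of each other, so the coding stretch around the activation loop is shown to let their sequences be compared. The lines give 69 bases of the transcript with the longest coding sequence for each gene in GENCODE, on the coding strand, and the capitals mark the codons of the threonine, proline and tyrosine of the loop.
Mapk8: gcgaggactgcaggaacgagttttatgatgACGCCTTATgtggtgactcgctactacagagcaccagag
Mapk9: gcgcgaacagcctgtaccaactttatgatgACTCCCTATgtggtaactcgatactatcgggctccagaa
Mapk10: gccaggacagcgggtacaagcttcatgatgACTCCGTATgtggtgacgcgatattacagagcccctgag

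Mapk8 and Mapk10 matched at 55 of these 69 bases (79.7%), Mapk8 and Mapk9 at 51, and Mapk9 and Mapk10 at 51 (73.9% for both pairs). Over the whole transcripts the longest exact run that both genes held was 27 bases for Mapk8 and Mapk10 and 23 bases for each of the other JNK pairs. The longest among all pairs of members was 37 bases, for Map3k13 and Map2k4. The treatment of reads that match more than 1 gene is not stated in those sources.

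Per length of exon, the 10 genes fell into 8 that were well expressed and 2 that were not. The scaffold Mapk8ip2 had the highest level, 33.8 RPKM (CPM per kilobase of exon) as the mean of the 20 libraries. It was followed by Map2k7 at 22.7, Map2k4 at 21.7, Mapk9 at 20.6, Mapk8ip3 at 16.4, Map3k12 at 15.2, Mapk8ip1 at 14.2 and Mapk10 at 12.1 RPKM. Map3k13 had 1.49 and Mapk8 1.04 RPKM, and no library brought either above 2.54 RPKM. Neighbours in this order were not separate: the ranges over libraries of Map2k7 (13.5 to 32.0 RPKM), Map2k4 (12.6 to 27.1) and Mapk9 (11.2 to 27.5) overlapped nearly throughout. The step between Mapk10, at 4.72 RPKM or more in every library, and Map3k13 was the single gap in the order. This order, and the shares of summed RPKM below, depend on the exon length taken for each gene, the union over its transcripts. That length was 14558 bases for Mapk8ip3 and 5700 for Mapk8ip2, whose transcripts with the longest coding sequence had 5603 and 5558 bases. In CPM the means of the 20 libraries were 239 for Mapk8ip3, 193 for Mapk8ip2, 140 for Mapk9 and 134 for Mapk10.

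Set against controls, the calls above were all for Mapk10 and the JIP scaffolds, and the calls below were all for Map3k12 and Map2k7. A gene was called at an adjusted p below 0.05 (edgeR quasi-likelihood test, Benjamini-Hochberg over all genes tested). In ATF3 knockouts 3 members were called higher and 1 lower, where 18.6% and 14.8% of all genes were called in those directions. In ATF4 knockouts 2 were called higher and 0 lower (all genes 16.6% and 14.6%), in CEBPG knockouts 2 higher and 2 lower (18.3% and 15.0%), and in CHOP knockouts 4 higher and 0 lower (18.1% and 15.4%). Taken in both directions, 4, 2, 4 and 4 of the 10 members were called in ATF3, ATF4, CEBPG and CHOP knockouts, beside the 33.4%, 31.3%, 33.4% and 33.5% of all genes. Members whose knockout and control libraries did not overlap numbered 5, 3, 3 and 3 of 10 in ATF3, ATF4, CEBPG and CHOP knockouts, beside 34.3%, 44.8%, 26.9% and 28.9% of all genes. The median log2 fold change of the members was 0.17 in ATF3, 0.21 in ATF4, -0.062 in CEBPG and 0.36 in CHOP knockouts, beside 0.064, 0.00, 0.059 and 0.011 for all genes. The 4 comparisons share the same control libraries.

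**Figure D2:**
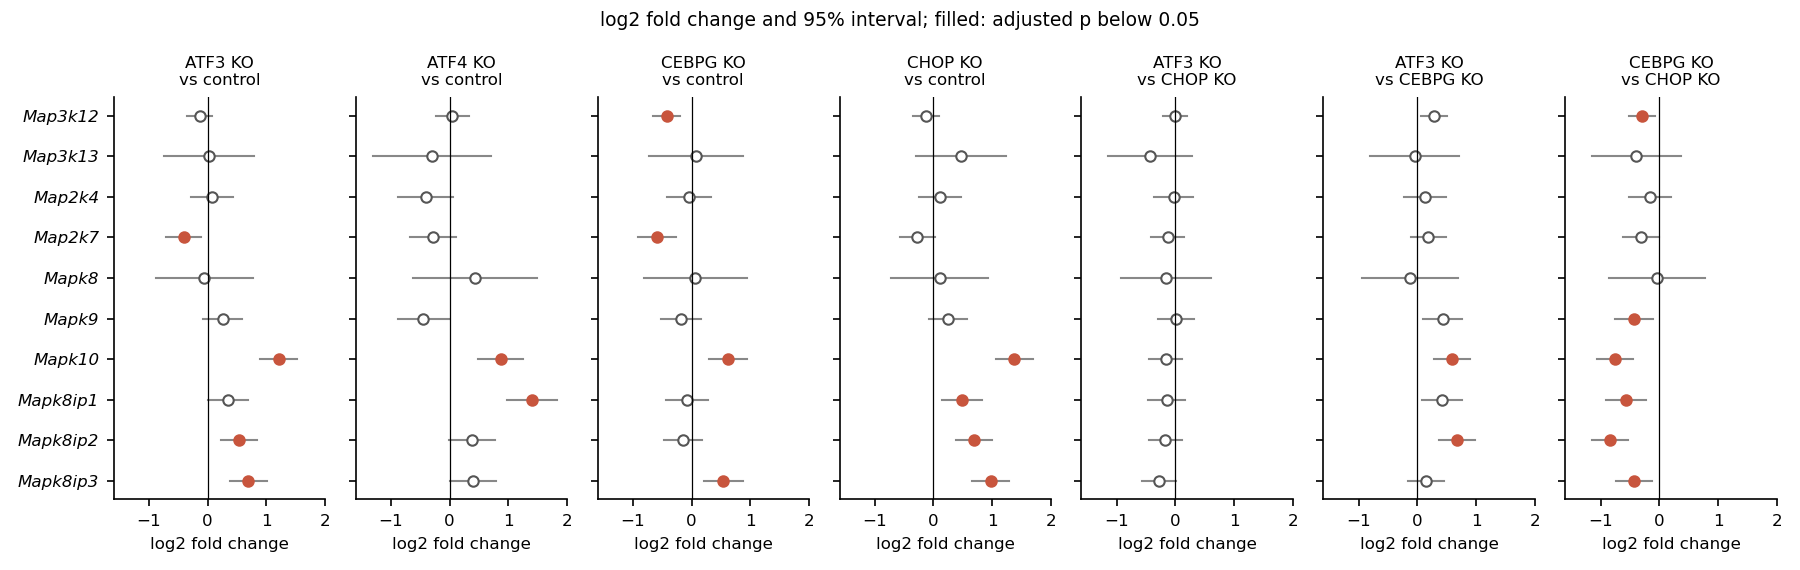
log2 fold change of each member in the 7 comparisons, with its 95% interval; filled points have an adjusted p below 0.05. Mapk10 was called higher in all 4 knockouts against control, while Map3k13, Map2k4 and Mapk8 were called in no comparison.

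Map3k12 encodes DLK, the kinase that starts the relay, and it was the steadiest member. It had 147, 135, 128, 145 and 128 CPM in ATF3 knockouts, 164 and 146 CPM in ATF4 knockouts, 117, 129, 99.6 and 104 CPM in CEBPG knockouts, and 129.7, 149, 154, 141 and 115 CPM in CHOP knockouts, against 145, 156, 151 and 149 CPM in controls. All 4 CEBPG libraries were below every control, and in each of the other knockouts the range overlapped that of the controls. The fall in CEBPG knockouts was 0.42 on the log2 scale (log2 fold change -0.42, SE 0.11, adjusted p = 0.00441), to 112 ± 13.3 CPM in CEBPG knockouts against 150.5 ± 4.68 CPM in controls (SD, n = 4 each). The log2 fold changes in ATF3, ATF4 and CHOP knockouts were -0.14, 0.044 and -0.13 (adjusted p = 0.339, 0.849 and 0.380). The 95% intervals of those values ran from -0.35 to 0.077, from -0.24 to 0.32 and from -0.34 to 0.090. Across the 20 libraries the SD of its log2 CPM was 0.20, the lowest of the members, whose values ran up to 0.62 for Mapk8.

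The 5 genes whose profile over the 20 libraries lay nearest to that of Map3k12 were Tmed4, Dpf2, Sfxn3, Ppa1 and P4htm. Their root mean square difference from it, in log2 CPM centred on each gene's mean, was 0.12, 0.13, 0.14, 0.15 and 0.15 among the 12568 genes that averaged 5 CPM or more. Of the members, Map2k7 was nearest, with a difference of 0.24.

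Map3k13 encodes LZK, a close relative of DLK that acts on the same kinases, and its counts were low. It had 12.7, 9.0, 15.1, 12.8 and 11.1 CPM in ATF3 knockouts, 11.02 and 8.35 CPM in ATF4 knockouts, 19.0, 3.65, 18.6 and 8.93 CPM in CEBPG knockouts and 20.3, 14.8, 11.2, 13.7 and 22.2 CPM in CHOP knockouts, against 13.1, 16.8, 6.12 and 11.8 CPM in controls. The groups overlapped throughout, and the CEBPG libraries alone spread over a range wider than the gap between any 2 group means. Its log2 fold changes against control were 0.028, -0.30, 0.076 and 0.47 in ATF3, ATF4, CEBPG and CHOP knockouts, with SEs of 0.37 to 0.49 and adjusted p from 0.366 to 0.967. The 95% intervals ran from -0.74 to 0.79, from -1.30 to 0.71, from -0.73 to 0.88 and from -0.31 to 1.24, so changes within them were not detectable given the spread between these libraries.

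Of the MAP2Ks, which pass the signal from DLK to JNK, Map2k7 was called lower in ATF3 and CEBPG knockouts and Map2k4 was not called. Map2k7, whose product MKK7 acts on JNK alone, had 81.5, 74.0, 80.8, 81.0 and 88.2 CPM in ATF3 knockouts and 61.1, 83.0, 89.4 and 51.6 CPM in CEBPG knockouts, against 90.3, 122, 117 and 99.5 CPM in controls. Both knockouts lay below every control, although the highest CEBPG library was within 1 CPM of the lowest control. In ATF3 knockouts it fell by 0.40 on the log2 scale (SE 0.14, adjusted p = 0.0332), and in CEBPG knockouts it fell by 0.59 (SE 0.15, adjusted p = 0.00421). Leaving out ATF3 replicate 5, 6, 7 or 8, or control replicate 5 or 7, ended the call in ATF3 knockouts, with an adjusted p of up to 0.0859.

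In ATF4 knockouts Map2k7 had 78.8 and 96.9 CPM and in CHOP knockouts 101, 77.4, 91.6, 89.5 and 83.8 CPM, and both overlapped the controls. The log2 fold changes of -0.29 and -0.28 were not called (adjusted p = 0.269 and 0.146). Map2k4, whose product MKK4 acts on JNK and p38, had 93.6 to 123 CPM in ATF3, 58.9 to 93.0 in ATF4, 68.7 to 116 in CEBPG and 90.8 to 122 CPM in CHOP knockouts, against 67.6 to 126 CPM in controls. Its log2 fold changes of 0.078, -0.41, -0.050 and 0.11 had adjusted p from 0.182 to 0.865. Without control replicate 7, its lowest control, the value in ATF4 knockouts was -0.57 with an adjusted p of 0.0379.

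Mapk10, which encodes JNK3, the JNK that is largely restricted to neurons, was the member called higher in every knockout. It had 153, 172, 163, 164 and 159 CPM in ATF3 knockouts, 122 and 135 CPM in ATF4 knockouts, 74.9, 116, 137 and 103 CPM in CEBPG knockouts, and 181, 162, 166, 191 and 209.9 CPM in CHOP knockouts, against 86.4, 64.5, 76.9 and 52.5 CPM in controls. Every ATF3, ATF4 and CHOP library was above every control, and 1 CEBPG library (replicate 6) lay among the controls. The rise was 2.59-fold in CHOP knockouts (log2 fold change 1.38, SE 0.15, adjusted p = 1.72e-07) and 2.31-fold in ATF3 knockouts (1.21, SE 0.15, adjusted p = 1.20e-06). It was 1.83-fold in ATF4 knockouts (0.87, SE 0.19, adjusted p = 0.000864) and 1.54-fold in CEBPG knockouts (0.62, SE 0.16, adjusted p = 0.00325). These calls held without any single library, and with only the 2 groups in the fit the CEBPG value was 0.59 with an adjusted p of 0.0533. The amacrine markers named above had the same order of groups as Mapk10, from CHOP, ATF3, ATF4 and CEBPG knockouts down to controls, and rod markers summed to 3151 to 8967 CPM in the knockouts against 37710 to 59301 CPM in controls; their part in the result was not tested.

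Mapk9 (JNK2), made in most tissues, was not called in any knockout against control. It had 154, 151, 146, 182 and 166 CPM in ATF3 knockouts, 75.7 and 121 CPM in ATF4 knockouts, 82.5, 104, 148 and 138 CPM in CEBPG knockouts and 175, 146, 129, 159 and 186 CPM in CHOP knockouts, against 145, 137, 116 and 139 CPM in controls. All ATF3 libraries were above the controls by a narrow margin, and the other knockouts overlapped them. The log2 fold changes were 0.25, -0.45, -0.18 and 0.25 in ATF3, ATF4, CEBPG and CHOP knockouts (adjusted p = 0.235, 0.108, 0.447 and 0.244). Without ATF4 replicate 3 the value in ATF4 knockouts, which then rests on 1 library assumed to vary like the other groups, was -0.82 with an adjusted p of 0.0239.

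Mapk8 (JNK1), likewise broadly made, was the lowest of the JNK genes. Its range was 9.43 to 12.5 CPM in ATF3, 14.4 to 16.1 in ATF4, 4.16 to 16.8 in CEBPG and 6.79 to 22.7 CPM in CHOP knockouts, against 4.14 to 17.5 CPM in controls. The groups overlapped, with log2 fold changes of -0.056, 0.44, 0.064 and 0.10 and adjusted p from 0.567 to 0.936.

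The make-up of JNK RNA differed accordingly. Mapk10 gave 37.4 ± 2.25% of the summed JNK RPKM in ATF3 knockouts (SD, n = 5), 42.7 ± 5.45% in ATF4 (n = 2), 34.3 ± 3.15% in CEBPG (n = 4) and 40.0 ± 1.39% in CHOP knockouts (n = 5), against 23.3 ± 4.39% in controls (n = 4). The lowest knockout library, at 30.8%, was above the highest control, at 27.4%. Mapk9 gave 60.2% in ATF3, 52.3% in ATF4, 61.6% in CEBPG and 57.3% in CHOP knockouts, against 73.0% in controls, and Mapk8 gave at most 7.06% in any library. The summed JNK level was 39.1 ± 2.21 RPKM in ATF3, 27.3 ± 5.39 in ATF4, 28.1 ± 6.12 in CEBPG and 40.9 ± 4.56 in CHOP knockouts, against 27.0 ± 1.85 RPKM in controls. In ATF4 and CEBPG knockouts the share of Mapk10 was thus higher at a summed level whose range included that of the controls. These shares and sums are descriptions that depend on the exon length taken for each gene, and they were not tested.

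**Figure D3:**
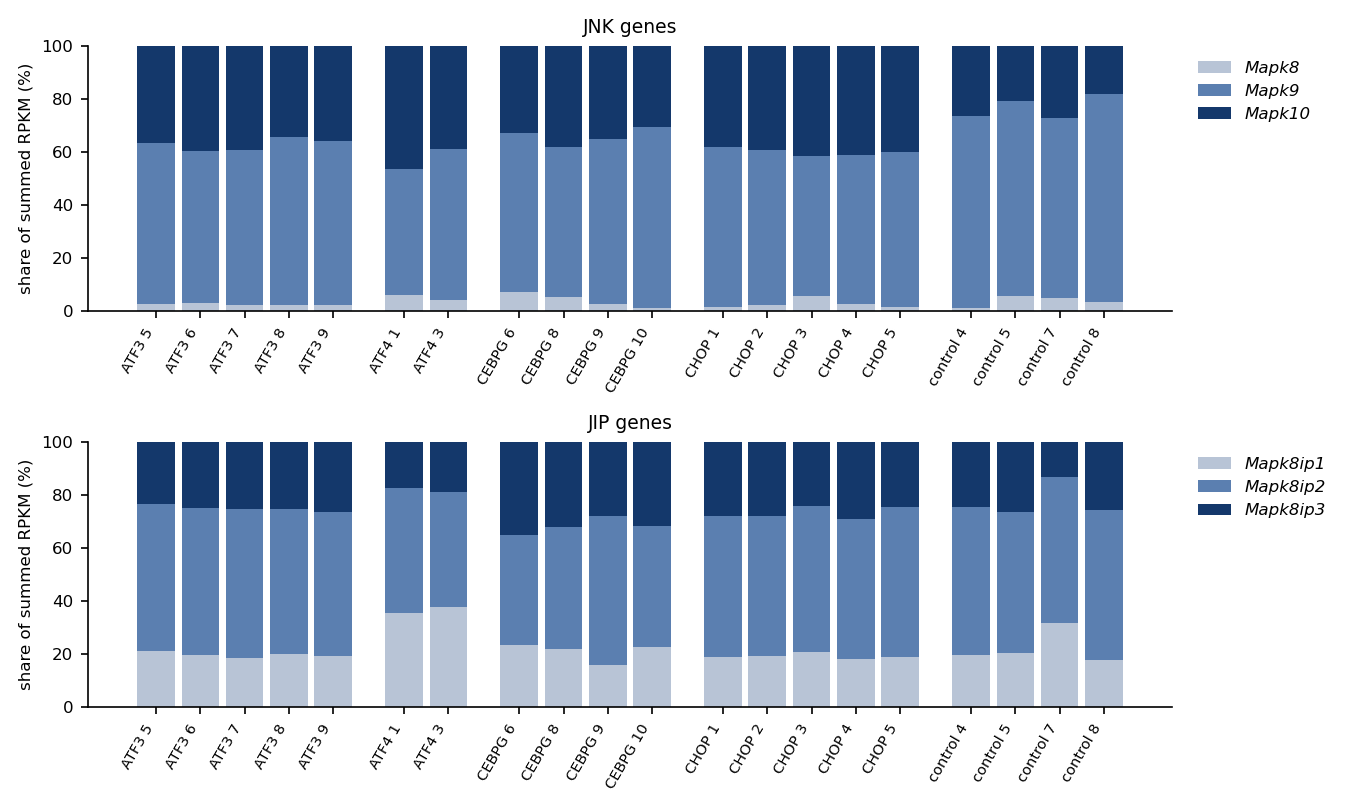
Share of each gene, in percent, in the summed RPKM of the JNK genes (top) and of the JIP genes (bottom), with 1 bar for each library. The Mapk10 share was 30.8% or more in every knockout library and 27.4% or less in every control, and the Mapk8ip1 share was highest in both ATF4 libraries.

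The JIP scaffold genes were all called higher in CHOP knockouts, and each was also called in at least 1 other knockout. Mapk8ip1, which encodes JIP1, a scaffold of DLK, MKK7 and JNK that also binds kinesin, was called in ATF4 and CHOP knockouts. It had 107 and 157 CPM in ATF4 knockouts, 65.7, 64.7, 57.3, 67.7 and 61.3 CPM in ATF3 knockouts, 42.3, 52.8, 43.3 and 50.9 CPM in CEBPG knockouts and 71.7, 69.1, 71.4, 58.9 and 80.0 CPM in CHOP knockouts, against 49.1, 40.7, 71.7 and 37.7 CPM in controls. Both ATF4 libraries were above every other library, and control replicate 7 lay above the rest of the controls and within the CHOP range.

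Mapk8ip1 rose 2.64-fold in ATF4 knockouts (log2 fold change 1.40, SE 0.20, adjusted p = 1.26e-05), with a log2 fold change of 1.65 and an adjusted p of 4.43e-05 from the single library left without ATF4 replicate 1. In CHOP knockouts its log2 fold change was 0.49 (SE 0.16, adjusted p = 0.0232), a call that ended when CHOP replicate 1 or 5 or control replicate 5 or 8 was left out (adjusted p up to 0.138). In ATF3 knockouts the value was 0.34 with an adjusted p of 0.114, and without control replicate 7 it was 0.57 with an adjusted p of 0.00475. In CEBPG knockouts it was -0.075 (adjusted p = 0.778). Its share of the summed JIP RPKM was 36.6 ± 1.75% in ATF4 knockouts and 22.3 ± 6.26% in controls.

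Mapk8ip2 encodes JIP2, a scaffold that is abundant in brain. It had 212, 222, 211, 228 and 213 CPM in ATF3 knockouts, 175 and 219.7 CPM in ATF4 knockouts, 92.3, 136, 190.1 and 127 CPM in CEBPG knockouts, and 247, 233, 231, 212 and 299.8 CPM in CHOP knockouts, against 171, 129.6, 154 and 149 CPM in controls. The ATF3, ATF4 and CHOP libraries were all above the controls, and the CEBPG libraries fell on both sides of them. It rose by 0.70 on the log2 scale in CHOP knockouts (SE 0.15, adjusted p = 0.000743) and by 0.53 in ATF3 knockouts (SE 0.15, adjusted p = 0.00795). The values of 0.39 in ATF4 and -0.14 in CEBPG knockouts were not called (adjusted p = 0.126 and 0.518).

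Mapk8ip3 encodes JIP3, a scaffold that links kinesin and dynein motors to axonal cargo. It had 229, 257, 247, 272 and 265 CPM in ATF3 knockouts, 167 and 249 CPM in ATF4 knockouts, 202, 246, 241 and 226 CPM in CEBPG knockouts, and 333, 317, 263, 300.2 and 329.8 CPM in CHOP knockouts, against 194, 167, 95.5 and 173 CPM in controls. The ATF3, CEBPG and CHOP libraries were all above the controls, of which replicate 7 was the lowest. It rose 1.96-fold in CHOP knockouts (log2 fold change 0.97, SE 0.15, adjusted p = 2.27e-05), 1.61-fold in ATF3 knockouts (0.69, SE 0.15, adjusted p = 0.00100) and 1.45-fold in CEBPG knockouts (0.54, SE 0.16, adjusted p = 0.0102).

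With only the CEBPG and control libraries in the fit, the CEBPG value of Mapk8ip3 was 0.51 with an adjusted p of 0.0722. In ATF4 knockouts its value was 0.40 (adjusted p = 0.116). Without ATF4 replicate 1 it was 0.66 with an adjusted p of 0.0430, and without control replicate 4 it was 0.52 with an adjusted p of 0.0450. The summed JIP level was 69.2 ± 2.78 RPKM in ATF3, 77.3 ± 17.2 in ATF4, 49.8 ± 8.35 in CEBPG and 79.3 ± 8.44 in CHOP knockouts, against 48.0 ± 4.61 RPKM in controls.

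**Figure D4:**
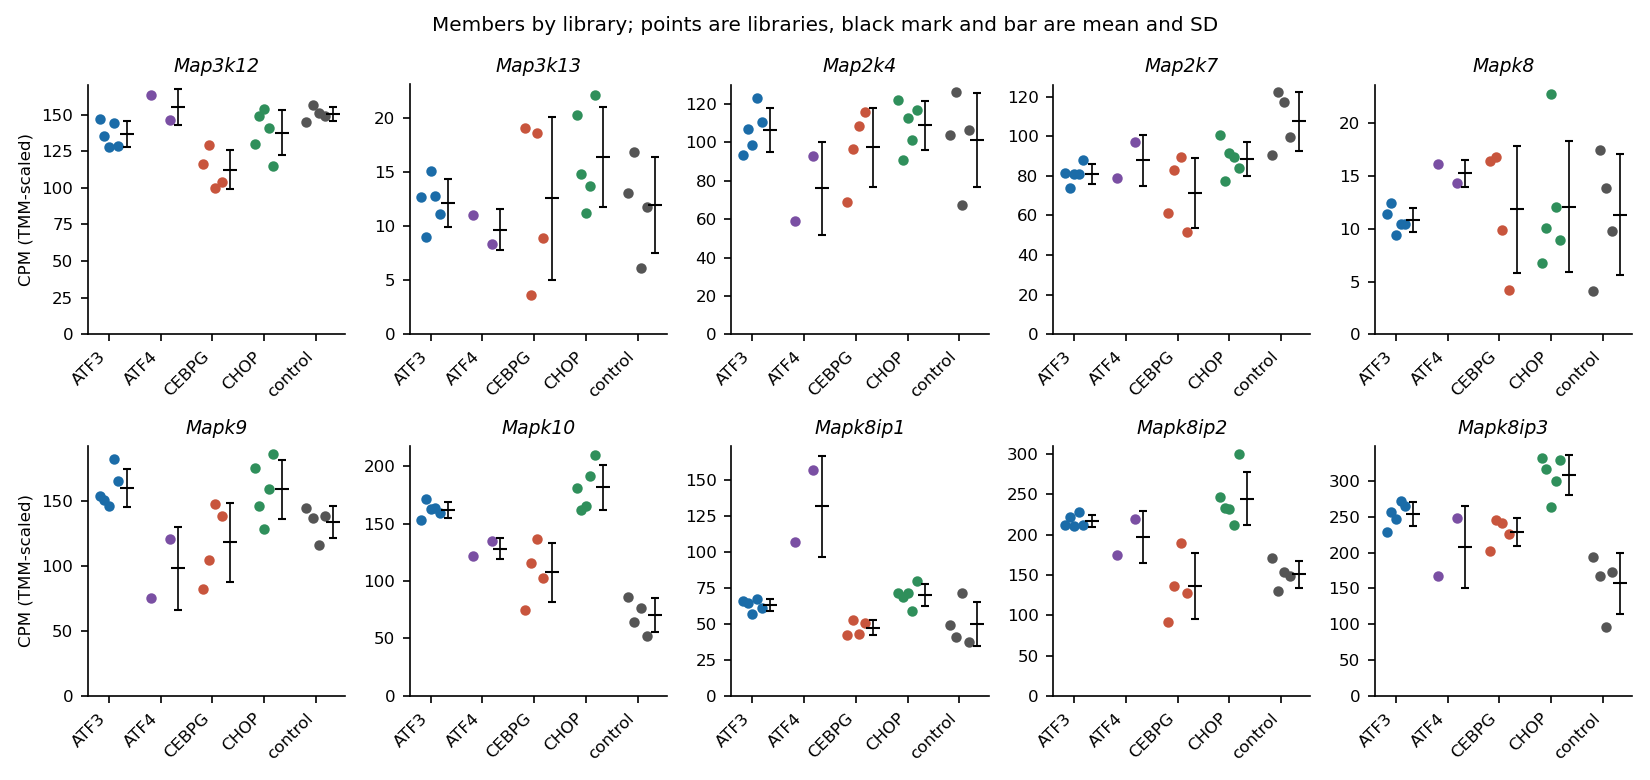
CPM of each member by group; points are libraries, and the black mark and bar are the mean and SD. Mapk10 ranged over 153 to 172 CPM in ATF3 and 162 to 209.9 CPM in CHOP knockouts against 52.5 to 86.4 CPM in controls, while Map3k13 and Mapk8 spread as widely within groups as between them.

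Among the knockouts that share batch and sex, 6 of the 10 members were called lower in CEBPG than in CHOP knockouts. None was called higher (0 of 10), where 13.2% of all genes were called lower and 13.5% higher. The members' median log2 fold change was -0.41, beside -0.027 for all genes. The largest falls were in Mapk8ip2 (log2 fold change -0.84, SE 0.15, adjusted p = 0.000187), Mapk10 (-0.75, SE 0.15, adjusted p = 0.000525) and Mapk8ip1 (-0.57, SE 0.16, adjusted p = 0.0121). For these genes the CEBPG and CHOP libraries did not overlap, and the same held of Mapk8ip3, so that 4 of 10 members did not overlap where 21.2% of all genes did not.

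The other calls in this comparison were Mapk8ip3 (-0.43, adjusted p = 0.0355), Mapk9 (-0.43, adjusted p = 0.0491) and Map3k12 (-0.30, adjusted p = 0.0389), and each was lost when certain single libraries were left out. Map3k12 was not called without CEBPG replicate 9 or 10 or CHOP replicate 2, 3 or 4 (adjusted p up to 0.142). Mapk9 was not called without CEBPG replicate 6 or 8 or CHOP replicate 1, 2, 4 or 5 (adjusted p up to 0.171). Mapk8ip3 was not called without CEBPG replicate 6, 9 or 10 or CHOP replicate 1, 2, 4 or 5 (adjusted p up to 0.0930). With relative log expression size factors the adjusted p was 0.0677 for Map3k12 and 0.0587 for Mapk9, and with only the 2 groups in the fit it was 0.198 and 0.116. The number of members called fell to 3 to 5 when any 1 library was left out, with 3 without CHOP replicate 2 and 3 without CHOP replicate 4. Map2k7, at -0.31 (adjusted p = 0.118), had an adjusted p of 0.0375 without CEBPG replicate 9. Amacrine markers summed to 3376 to 4791 CPM in CEBPG against 7684 to 9213 CPM in CHOP knockouts. Lymphocyte markers summed to 1299 to 2182 CPM against 285 to 441 CPM. By gene, 12 of 14 rod markers were called lower and 11 of 13 microglia markers higher, with 0 the other way for both. Of 12 Muller glia markers 7 were called lower and 4 higher, and of 10 cone markers 5 and 1. Of 16 ganglion cell markers 5 were called lower and 2 higher, and of 12 bipolar markers 3 and 0. Of all genes 13.2% were called lower and 13.5% higher. The part of these markers in the result was not tested.

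In ATF3 against CEBPG knockouts 2 members were called higher and 0 lower, where 10.1% and 10.2% of all genes were (20.4% in either direction). These were Mapk8ip2 (log2 fold change 0.67, SE 0.15, adjusted p = 0.00215) and Mapk10 (0.59, SE 0.15, adjusted p = 0.00589), and for both every ATF3 library was above every CEBPG library. Mapk8ip1 (0.42), Mapk9 (0.43) and Map3k12 (0.28) had adjusted p of 0.0723, 0.0559 and 0.0574. Mapk9 had an adjusted p of 0.0366 without CEBPG replicate 10 and 0.0192 without replicate 9, and Map3k12 one of 0.0245 without replicate 8. With only the 3 knockouts of the shared batch in the fit, Mapk8ip1 and Mapk9 were called as well (adjusted p = 0.0144 and 0.0463). With only the 2 groups in the fit Mapk8ip1 had an adjusted p of 0.0268, and in DESeq2 Mapk9 had one of 0.0481. This comparison shares the CEBPG libraries with the one above. Of the cell type markers, 9 of 12 amacrine and 10 of 12 bipolar markers were called higher in ATF3 than in CEBPG knockouts and 11 of 11 lymphocyte markers lower, and their part in the result was not tested.

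In ATF3 against CHOP knockouts 0 of 10 members were called by edgeR and 0 by DESeq2, and 0 had an unadjusted p below 0.05 in edgeR, where 2.26% of all genes were called, 1.51% higher and 0.756% lower. No member had groups that did not overlap (0 of 10, beside 8.06% of all genes). The smallest adjusted p was 0.409, for Mapk8ip3 (log2 fold change -0.28). The 95% interval of the difference was -0.45 to 0.12 for Mapk10, -0.21 to 0.19 for Map3k12 and -0.57 to 0.0081 for Mapk8ip3. With only these 2 groups in the fit Mapk8ip3 was called, with an adjusted p of 0.0250 at a value of -0.28.

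The authors' deposited table of fold changes, whose model is not stated, puts 6 of 40 values for the members below an FDR of 0.05. In the authors' deposited table Mapk10 had a log fold change of 1.84 in CHOP (FDR 0.00252), 1.61 in ATF3 (FDR 0.00186) and 1.08 in CEBPG knockouts (FDR 0.000919). Mapk8ip3 had 1.06 in CHOP (FDR 0.0331) and 0.77 in CEBPG knockouts (FDR 0.00337), and Mapk8ip1 had 1.29 in ATF4 knockouts (FDR 0.0460), in the authors' deposited table. For Mapk10 in ATF4 knockouts the authors' deposited table gives 0.65 with an FDR of 0.312. For Map2k7 and Map3k12, which were called lower in CEBPG knockouts above, the authors' deposited table gives -0.34 for both genes (FDR 0.308 and 0.0557). Other calls made above were also not below an FDR of 0.05 in the authors' deposited table. There Mapk8ip2 had 0.32 in ATF3 and 0.56 in CHOP knockouts (FDR 0.549 and 0.340). Mapk8ip1 had 0.95 in CHOP knockouts (FDR 0.156), in the authors' deposited table. In ATF3 knockouts the authors' deposited table gives 0.74 for Mapk8ip3 and -0.078 for Map2k7 (FDR 0.0828 and 0.936). Over all 40 values the sign in the authors' deposited table was that of the fit used here for 25.

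Among genes that feed into the relay, more were called higher than lower in each knockout. Of 13 upstream kinases and GTPases, 9 were called higher and 2 lower in ATF3, 6 and 2 in ATF4, 8 and 1 in CEBPG and 9 and 1 in CHOP knockouts against control. Their median log2 fold changes were 0.67, 0.46, 0.51 and 0.62. Among all genes 16.6% to 18.6% were called higher and 14.6% to 15.4% lower in these comparisons. In the same comparisons 10 of 12 amacrine markers were called higher in every knockout, with 1 lower in CEBPG knockouts (median log2 fold changes 1.43, 1.42, 0.75 and 1.81) and 14 of 14 rod markers lower (-3.59, -3.56, -3.57 and -2.75), and their part in the calls of this and the following lists was not tested. Pak3, a kinase activated by Cdc42 and Rac, had log2 fold changes of 0.86, 0.79, 0.51 and 0.92 in ATF3, ATF4, CEBPG and CHOP knockouts (adjusted p from 3.51e-07 to 0.000940). Prkacb, a catalytic subunit of protein kinase A, rose by 1.36 in ATF3, 0.66 in CEBPG and 1.22 in CHOP knockouts (adjusted p = 1.40e-06, 0.00532 and 5.36e-06), and its value in ATF4 knockouts was 0.15 (adjusted p = 0.661). Tnik, a kinase known from Wnt signalling, rose by 0.78, 0.96, 0.94 and 1.30 in ATF3, ATF4, CEBPG and CHOP knockouts (adjusted p from 3.09e-05 to 0.00583). Without ATF4 replicate 1 the Tnik value in ATF4 knockouts was 0.84 with an adjusted p of 0.0777. Map4k3, a kinase of amino acid signalling, fell in all of them, with log2 fold changes of -1.13, -2.04, -1.30 and -1.07 (adjusted p from 4.32e-06 to 8.42e-05).

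Map4k1, a kinase made chiefly in blood cells, had a log2 fold change of 3.16 in CEBPG knockouts against control (adjusted p = 5.94e-06), beside lymphocyte markers at 1299 to 2182 CPM in CEBPG knockouts and 9.63 to 23.1 CPM in controls, whose part was not tested. In the comparisons with control 31.3% to 33.5% of all genes were called in either direction. Of 13 other stress MAP3Ks, 0 rose and 2 fell in ATF3, 2 and 3 in ATF4, 1 and 1 in CEBPG and 1 and 3 in CHOP knockouts. Taok3, a TAO kinase, fell in all of them, with log2 fold changes of -1.75, -1.81, -1.63 and -1.51 (adjusted p from 9.59e-11 to 5.15e-08).

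Sarm1, the enzyme that degrades NAD in injured axons, was lower in every knockout. It stood at 46.8 ± 6.10 CPM in ATF3 (n = 5), 53.3 ± 17.7 in ATF4 (n = 2), 29.2 ± 12.1 in CEBPG (n = 4) and 45.1 ± 5.04 CPM in CHOP knockouts (n = 5), against 138 ± 19.8 CPM in controls (SD, n = 4). The log2 fold changes were -1.56, -1.37, -2.23 and -1.61 (adjusted p = 2.05e-06, 0.000568, 3.11e-08 and 1.13e-06). The rod markers fell in the same knockouts (14 of 14 lower in each), and their part in the fall of Sarm1 was not tested. Nmnat2, the axonal NAD synthase that keeps Sarm1 in check, rose by 1.23 in ATF3, 1.25 in ATF4 and 1.58 in CHOP knockouts (adjusted p = 0.000960, 0.00506 and 7.09e-05), and its value in CEBPG knockouts was 0.59 (adjusted p = 0.106). The Nmnat2 call in ATF4 knockouts ended without ATF4 replicate 3 (1.06, adjusted p = 0.0704). These genes belong to a list of 12 for DLK turnover and axon integrity, of which 4 rose and 3 fell in ATF3, 4 and 5 in ATF4, 3 and 4 in CEBPG and 4 and 3 in CHOP knockouts. Against control 31.3% to 33.5% of all genes were called in either direction. Hsp90ab1, a subunit of the chaperone that stabilises DLK, rose by 0.68, 0.90, 0.53 and 0.86 (adjusted p from 1.92e-07 to 0.000170). Hsp90aa1, of the same chaperone, went the other way in ATF3 and CEBPG knockouts. Its log2 fold changes there were -0.33 and -0.71 (adjusted p = 0.0166 and 1.75e-05). Mycbp2, the ubiquitin ligase PHR1 that marks DLK for degradation, rose by 0.60, 0.83, 1.13 and 1.18 (adjusted p from 4.53e-06 to 0.00536), a call that in ATF4 knockouts was lost without ATF4 replicate 1 (0.57, adjusted p = 0.123). Zdhhc5, a palmitoyl transferase, had log2 fold changes of -0.59, -1.43, -1.14 and -0.51 in ATF3, ATF4, CEBPG and CHOP knockouts (adjusted p from 5.57e-06 to 0.0104).

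**Figure D5:**
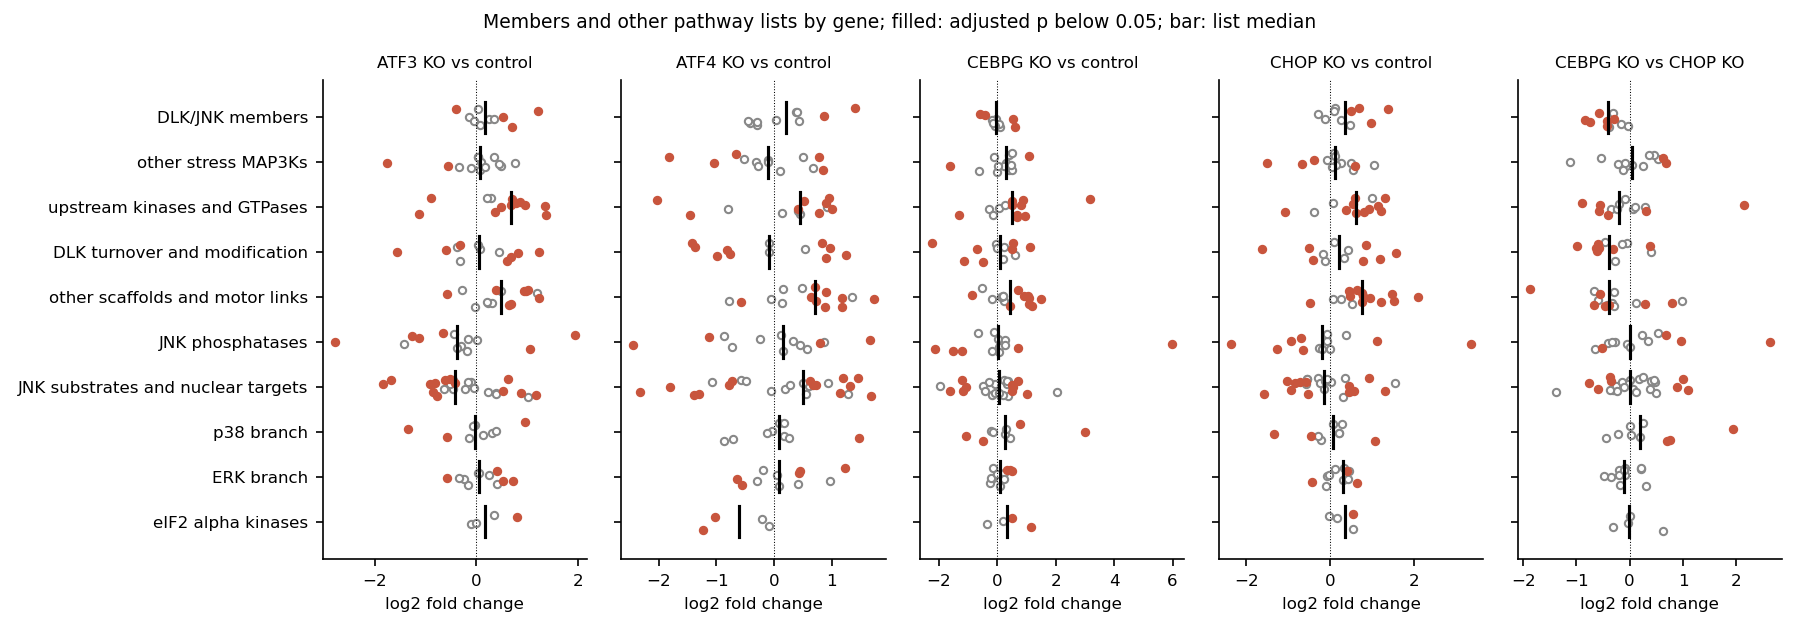
log2 fold change of each gene of the members and of the 9 other lists in 5 comparisons; filled points have an adjusted p below 0.05, and the bar is the median of the list. The axes differ between panels. Upstream kinases and motor genes had medians of 0.43 to 0.75 against control.

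Scaffold and motor genes other than Mapk8ip1, Mapk8ip2 and Mapk8ip3 were called higher more often than lower in each knockout. Of 15 genes, 7 rose and 1 fell in ATF3, 8 and 1 in ATF4, 8 and 1 in CEBPG and 11 and 1 in CHOP knockouts, with medians of 0.48, 0.71, 0.43 and 0.75, beside 18.6% and 14.8%, 16.6% and 14.6%, 18.3% and 15.0%, and 18.1% and 15.4% of all genes. The amacrine markers had median log2 fold changes of 1.43, 1.42, 0.75 and 1.81 in these knockouts, and their part was not tested. Kif5c, a kinesin heavy chain of neurons, stood at 392 ± 32.4 CPM in ATF3, 309.98 ± 21.2 in ATF4, 380.0 ± 26.0 in CEBPG and 464 ± 51.1 CPM in CHOP knockouts, against 167 ± 42.7 CPM in controls (SD, n = 5, 2, 4, 5 and 4). Its log2 fold changes were 1.23, 0.89, 1.19 and 1.47 (adjusted p from 6.46e-09 to 0.000146). Klc1, a kinesin light chain that binds JIP scaffolds, rose by 0.63 in ATF3, 0.91 in ATF4 and 0.75 in CHOP knockouts (adjusted p = 0.000102, 2.34e-05 and 1.18e-05), and its value in CEBPG knockouts was 0.19 (adjusted p = 0.230). The gene that fell was Dctn1, the dynactin subunit that binds dynein and microtubules, at -0.58, -0.57, -0.86 and -0.47 (adjusted p from 1.94e-05 to 0.0113). Its call in ATF4 knockouts was lost without ATF4 replicate 1 (-0.39, adjusted p = 0.221).

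Phosphatases that switch JNK and other MAP kinases off moved in both directions. Of 13 genes, 2 rose and 4 fell in ATF3, 2 and 2 in ATF4, 2 and 3 in CEBPG and 2 and 5 in CHOP knockouts. Beside these counts, 33.4%, 31.3%, 33.4% and 33.5% of all genes were called in either direction. Dusp14 fell most, to 7.97 ± 2.48 CPM in ATF3, 10.1 ± 2.78 in ATF4, 12.4 ± 6.19 in CEBPG and 10.6 ± 3.55 CPM in CHOP knockouts, against 54.9 ± 15.1 CPM in controls (SD, n = 5, 2, 4, 5 and 4). Its log2 fold changes were -2.78, -2.44, -2.14 and -2.36 (adjusted p from 1.53e-06 to 0.000662). Dusp8, a neuronal phosphatase of JNK, had log2 fold changes of -0.66 in ATF3, -1.20 in CEBPG and -0.68 in CHOP knockouts (adjusted p = 3.82e-06, 9.06e-10 and 2.22e-06). Dusp2 rose in all of them, by 1.93 in ATF3, 1.67 in ATF4, 6.00 in CEBPG and 3.36 in CHOP knockouts (adjusted p from 1.62e-12 to 0.000438). Dusp2 is known from activated lymphocytes, and the lymphocyte markers, like Dusp2, were highest in CEBPG knockouts; their part in its rise was not tested.

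The next 25 genes were listed as substrates or nuclear targets of JNK, and the link of each to JNK, such as that of Mef2c, was not checked. Of them, 4 rose and 9 fell in ATF3 and 8 and 6 in ATF4 knockouts. In CEBPG knockouts 5 rose and 4 fell, and in CHOP knockouts 5 and 7. The shares of all genes called in either direction were 33.4%, 31.3%, 33.4% and 33.5%. Mapt (tau), a microtubule protein that JNK phosphorylates, rose by 1.17 in ATF3, 1.45 in ATF4, 0.55 in CEBPG and 1.32 in CHOP knockouts (adjusted p from 4.89e-07 to 0.0104). Its call in CEBPG knockouts was lost without CEBPG replicate 8 (0.39, adjusted p = 0.0686) or control replicate 8 (0.35, adjusted p = 0.0591), and with only the 2 groups in the fit (0.52, adjusted p = 0.104). Mef2c, a transcription factor, had log2 fold changes of -1.67, -2.33, -1.61 and -1.58 in ATF3, ATF4, CEBPG and CHOP knockouts (adjusted p from 1.04e-06 to 4.22e-06). Hrk, a BH3-only death gene induced by c-Jun in neurons, fell by 1.83 in ATF3 knockouts against control (adjusted p = 5.11e-05) and by 1.41 against CEBPG knockouts (adjusted p = 0.00158).

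Jun, named here after its values were seen because it encodes the main nuclear substrate of JNK, had 444 ± 35.2 CPM in ATF3 knockouts, 896 ± 69.3 in ATF4, 737 ± 130.1 in CEBPG and 531 ± 249 CPM in CHOP knockouts, against 783 ± 118 CPM in controls (SD, n = 5, 2, 4, 5 and 4). It fell by 0.82 in ATF3 knockouts (adjusted p = 0.00575), and its values in ATF4, CEBPG and CHOP knockouts were 0.19, -0.086 and -0.56 (adjusted p = 0.658, 0.815 and 0.0545).

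In the sister MAP kinase branches and the kinases of eIF2 alpha calls went in both directions, in lists of 4 to 11 genes, where 31.3% to 33.5% of all genes were called. Of 9 p38 genes, 1 rose and 2 fell in ATF3, 1 and 0 in ATF4, 2 and 2 in CEBPG and 1 and 2 in CHOP knockouts. Mapkapk3, a kinase activated by p38, rose by 0.94 in ATF3, 3.01 in CEBPG and 1.08 in CHOP knockouts (adjusted p = 0.00279, 2.11e-09 and 0.000870). Lymphocyte markers too were highest in CEBPG knockouts, and their part was not tested. Of 11 ERK genes, 3 rose and 1 fell in ATF3, 3 and 2 in ATF4, 3 and 0 in CEBPG and 2 and 1 in CHOP knockouts, and of 4 eIF2 alpha kinases 1 and 0, 0 and 2, 2 and 0 and 1 and 0 did. Eif2ak3 (PERK), the kinase of the endoplasmic reticulum upstream of ATF4, had a value of -1.02 in ATF4 knockouts (adjusted p = 0.0181), which was -0.80 with an adjusted p of 0.206 without ATF4 replicate 1.

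In ATF3 against CHOP knockouts 1.51% of all genes were called higher and 0.756% lower. Of the 115 genes of these lists in the table, 0 were called higher and 4 were called lower. These were Dusp2 (-1.43, adjusted p = 0.000528), Hrk (-1.29, adjusted p = 0.0147), Dync1h1, the dynein heavy chain (-0.68, adjusted p = 0.0154), and Mycbp2 (-0.58, adjusted p = 0.0396). Leaving out ATF3 replicate 6 or 7 or CHOP replicate 4 ended the Hrk call (adjusted p up to 0.0607), and leaving out ATF3 replicate 8 or 9 or CHOP replicate 2, 3 or 4 ended that of Dync1h1 (up to 0.0589). That of Mycbp2 ended whichever of the 10 libraries was left out (up to 0.139).

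The promoter windows of the members were searched for motifs of the targeted factors, since Mapk10 rose in all 4 knockouts. RefSeq windows on GRCm38.p6, from 250 bases before to 50 bases after a gene's start, were at hand for 9 of the 10 members (14 windows). The motifs, sought on both strands, were the AP-1 site TGANTCA (in 7.81% of 32851 windows of this length), the CRE TGACGTCA (1.79%), the C/EBP-ATF element TGATGNAA (3.97%) and the C/EBP site TTGCNNAA (10.8%). At least 1 of them was found in 5 of the 14 windows, and the share of all windows that hold at least 1 was not computed. The windows that held a motif of the factors and belong to a called member are those of Mapk10 and Map2k7, printed here with the matches in capitals. The Mapk10 window lies at chr5:103211285-103211584 on the minus strand and the Map2k7 window at chr8:4239855-4240154 on the plus strand, at the second of its RefSeq starts.
Mapk10: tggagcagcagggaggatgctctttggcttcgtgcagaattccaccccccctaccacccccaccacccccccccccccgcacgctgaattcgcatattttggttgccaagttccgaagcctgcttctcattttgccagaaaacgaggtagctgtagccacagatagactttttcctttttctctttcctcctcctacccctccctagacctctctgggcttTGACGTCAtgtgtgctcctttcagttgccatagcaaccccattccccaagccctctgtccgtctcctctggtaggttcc
Map2k7: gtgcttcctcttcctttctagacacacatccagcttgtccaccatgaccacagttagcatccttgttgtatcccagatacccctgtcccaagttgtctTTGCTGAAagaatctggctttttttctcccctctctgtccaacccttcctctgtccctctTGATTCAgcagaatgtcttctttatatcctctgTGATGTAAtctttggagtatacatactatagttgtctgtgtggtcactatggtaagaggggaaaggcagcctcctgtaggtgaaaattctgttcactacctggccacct

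The Mapk10 window held a CRE that starts 29 bases before the gene's start. The Map2k7 window held a C/EBP site, an AP-1 site and a C/EBP-ATF element at 152, 92 and 59 bases before that start. Each of these genes has another window, at chr5:103058343-103058642 for Mapk10 and chr8:4238490-4238789 for Map2k7, with no match. Both Map2k4 windows held a C/EBP site and the Map3k13 window a C/EBP-ATF element, while the windows of Map3k12, Mapk8, Mapk9, Mapk8ip2 and Mapk8ip3 held none of these letters. A match describes the letters and not a bound site.

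In the GENCODE annotation of mm10, Mapk10 spans chr5:102907948-103211334 on the minus strand, Map2k7 chr8:4238740-4247897 on the plus strand and Map3k12 chr15:102497646-102517064 on the minus strand. Mapk8ip1 spans chr2:92383676-92401263 (minus), Mapk8ip2 chr15:89453913-89464468 (plus) and Mapk8ip3 chr17:24892153-24936977 (minus). All 10 are annotated as protein-coding, and whether the counting used strand is not stated. Values of members that overlap another protein-coding gene are uncertain on that account: Map3k12 overlaps Pcbp2 and Gm10337 on the opposite strand, and Map2k7 overlaps Gm49320 on its own strand. Mapk8ip1 overlaps 1700029I15Rik, and Mapk8ip3 overlaps Eme2 on its own strand and Mrps34 and Nme3 on the opposite one. Mapk9 and Mapk8ip2 overlap no annotated gene, and Mapk10 overlaps a processed pseudogene and an unverified transcript inside its span.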

How the data were processed

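RNA of sorted retinal ganglion cells was sequenced from SMART-Seq libraries, per the labels' protocols, and how the sort was gated is not stated. STAR, Picard, HTSeq, edgeR and mm10 are named without versions or roles, per the submitters' processing notes. No label or note used here gives the annotation, or says whether counting used strand.

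The authors deposited raw counts of reads per gene for 21 libraries. The authors' deposited table of comparisons holds p-values, FDR values and log fold changes, read as log2. The authors' deposited sample sheet gives sex, batch, age, aligned reads as counts and the fraction of duplicate pairs (48.0% to 57.6%); 41 other columns of it were not used.

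Groups follow the sample titles, and 1 library whose title (control) and genotype label (CHOP knockout) differ is in no group. The labels do not tie the libraries of a group to separate animals, and p-values therefore cover only the spread between libraries, which may be technical. Replicate libraries differed beyond counting noise (chi-square per gene 12.9 to 64.6), so none was a copy.

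Counts were analysed with edgeR 4.0.16 in R 4.3.3. filterByExpr (minimum count 10) kept 16797 genes and removed 367. All 20 grouped libraries entered a single quasi-likelihood fit (TMM, robust, biological coefficient of variation 0.407, 15 residual degrees of freedom), which was tested on simulated data. Each comparison was a contrast, adjusted by Benjamini-Hochberg over all genes tested and called below 0.05; every adjusted p in the text that names no other tool is from this test. CPM use the TMM factors, and log2 CPM a prior count of 2. RPKM are these CPM per kilobase of the union of exons in the GENCODE annotation of mm10.

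The members and the lists of other genes were chosen with earlier results of these data known. All members were described in each comparison. Genes of the other lists were picked from the up to 3 called genes a direction with the smallest adjusted p in a comparison, except Jun. Not all genes that met this rule are named, and not all values of the named genes in the other comparisons are given. Alternatives were relative log expression size factors, DESeq2 1.42.0, no filter on low counts, only the 2 groups compared or only the 3 knockouts of batch 3 in the fit, the replicate number as a block, and leaving out each library; for named genes that are no members these were chosen after seeing the data. Same-numbered libraries of 2 groups did not deviate together (correlations across genes -0.05 to 0.03).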

Additional observations from a re-analysis of the deposited data

How the results depend on the processing

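Leaving out the filter on low counts changed no call or direction. Map3k13 in ATF3 knockouts against control changed sign around 0, with -0.014 under relative log expression size factors, -0.015 in DESeq2, -0.00244 with only the 2 groups in the fit and -0.016 with the replicate block. The number of genes called in ATF3 against CHOP knockouts (380) was 681 in DESeq2, 1232 with only the 2 groups in the fit and 11 with the replicate block. With only the 2 groups in the fit, 2 members were called in CEBPG knockouts against control, 1 in ATF3 against CHOP knockouts, and Mapk8 in CEBPG against CHOP knockouts was at 0.00931. With only the knockouts of batch 3 in the fit, 4 members were called in ATF3 against CEBPG knockouts. The cause of these changes was not tested.

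Replicate numbers do not pair the samples. A fit with the replicate number as a block, which uses up degrees of freedom, called 2 members in ATF3, 1 in ATF4 and 0 in CEBPG knockouts against control, 1 in ATF3 against CEBPG and 0 in CEBPG against CHOP knockouts. With the block 1322, 3081 and 2719 genes were called in ATF4, CEBPG and CHOP knockouts against control, 1895 in ATF3 against CEBPG and 517 in CEBPG against CHOP knockouts. Uncalled values changed sign with the block for Map3k12 (-0.13 in ATF4 knockouts, 0.19 in ATF3 against CHOP), Map3k13 (-0.00309 in CEBPG knockouts), Map2k4 (0.038) and Mapk9 (-0.095) in ATF3 against CHOP, and Mapk8 (0.043) in CEBPG against CHOP knockouts.

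Without 1 library at a time, 232 to 353 genes were called in ATF3 against CHOP knockouts, 3358 to 5592 in ATF4 knockouts against control (the lowest without ATF4 replicate 1) and 3 to 5 members in CEBPG against CHOP knockouts. Uncalled values that changed sign ranged, in ATF3 knockouts against control, over -0.20 to 0.20 for Map3k13, -0.078 to 0.17 for Map2k4 and -0.34 to 0.20 for Mapk8. In ATF4 knockouts Map3k12 ranged over -0.038 to 0.12. In CEBPG knockouts Map3k13 ranged over -0.19 to 0.35, Map2k4 over -0.21 to 0.083, Mapk8 over -0.22 to 0.35, Mapk8ip1 over -0.22 to 0.15 and Mapk8ip2 over -0.35 to 0.00243. In CHOP knockouts Map2k4 ranged over -0.062 to 0.19 and Mapk8 over -0.27 to 0.35. In ATF3 against CHOP knockouts the ranges were -0.057 to 0.045 for Map3k12, -0.074 to 0.025 for Map2k4, -0.30 to 0.21 for Mapk8 and -0.047 to 0.082 for Mapk9. In ATF3 against CEBPG knockouts they were -0.35 to 0.22 for Map3k13, -0.00513 to 0.22 for Map2k4 and -0.40 to 0.11 for Mapk8, and in CEBPG against CHOP knockouts -0.26 to 0.33 for Mapk8.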

Other observations

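The library that the labels put in no group had 131 CPM of Map3k12, 13.6 of Map3k13, 86.7 of Map2k4 and 70.3 CPM of Map2k7. It had 13.0 CPM of Mapk8, 116 of Mapk9 and 42.9 CPM of Mapk10, and 42.9 CPM of Mapk8ip1, 129 of Mapk8ip2 and 109 CPM of Mapk8ip3. These values enter no comparison.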
